A study of Equus caballus with 68 samples.

Results

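A set of 8 genes tied to glucocorticoid signalling was followed in equine bone marrow mononuclear cells (BMNC): the receptor NR3C1, the induced genes TSC22D3, KLF9, FKBP5, PER1, DUSP1 and ANXA1, and the activating enzyme HSD11B1. They were selected on a measured value, the lower level of TSC22D3 in inflamed fluid at 6 days. The others were added as known partners or targets to ask whether they moved with it. Earlier results of these data were known when the genes were chosen, so their tests were not independent of the choice. All 8 had an entry under their symbol among 30371 listed genes, and all 8 were among the 14570 genes that passed the filter on low values.

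BMNC of 8 adult Thoroughbred horses aged 3 to 9 years were cultured in undiluted synovial fluid of the same animal. The fluid was either normal (SF) or inflamed (ISF), the latter drawn from joints with synovitis induced by lipopolysaccharide. RNA was sequenced from uncultured cells at 0 hours (n = 8) and from each fluid at 48 hours (n = 7), 96 hours (n = 8), 6 days (n = 8) and 10 days (n = 7), 68 libraries in all, with 1 culture for each horse, fluid and time. The horse Moon had no libraries at 48 hours and Flash none at 10 days. The labels name no added glucocorticoid, and what hormone the fluids held was not analysed here.

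Glucocorticoids such as cortisol enter the cell and bind the receptor encoded by NR3C1, which is held by heat shock protein chaperones, moves to the nucleus and there raises or lowers the transcription of target genes. In macrophages and lymphocytes the induced genes include inhibitors of inflammatory signalling, while many cytokine and chemokine genes are lowered. Cells also set the local supply of hormone: HSD11B1 regenerates active glucocorticoid from its inactive form, using cofactor that H6PD supplies inside the endoplasmic reticulum.

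Values are GeTMM, reads per kilobase scaled to the library, so levels can be set beside each other between genes. Tests were made with limma on log2(GeTMM + 1), on which a log2 difference understates the change of low genes, and FDR is the Benjamini-Hochberg adjusted p over all 14570 genes, with a gene called at an FDR under 0.05. Libraries held 15.7 to 36 M reads on genes (median 22.3 M). These gave a median over libraries of 189 reads for KLF9, the least covered of the 8 genes, and 15622 reads for ANXA1, the most covered.

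Among the libraries 3 stood apart. The SF library of Moon at 6 days had 12797 genes above 0 and GeTMM values summing to 2321940, against 14783 to 17365 genes and sums of 817795 to 1458342 in the other 67 libraries. KLF9 is listed at 0 only there. The highest sum among the other 67, 1458342, was that of uncultured Ollie, and the next was 1150754. The ISF libraries labelled Dealings and Dreamer at 96 hours each resembled the other animal: deviations from the group means, over the genes tested, correlated with the other 8 libraries of the labelled horse at a median of -0.03 for Dealings and -0.07 for Dreamer, but with those of the other horse at 0.29 and 0.37. For the 8 genes, values are given with and without these libraries wherever leaving them out changed a call, and throughout for the fluids at 6 days.

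**Figure D1:**
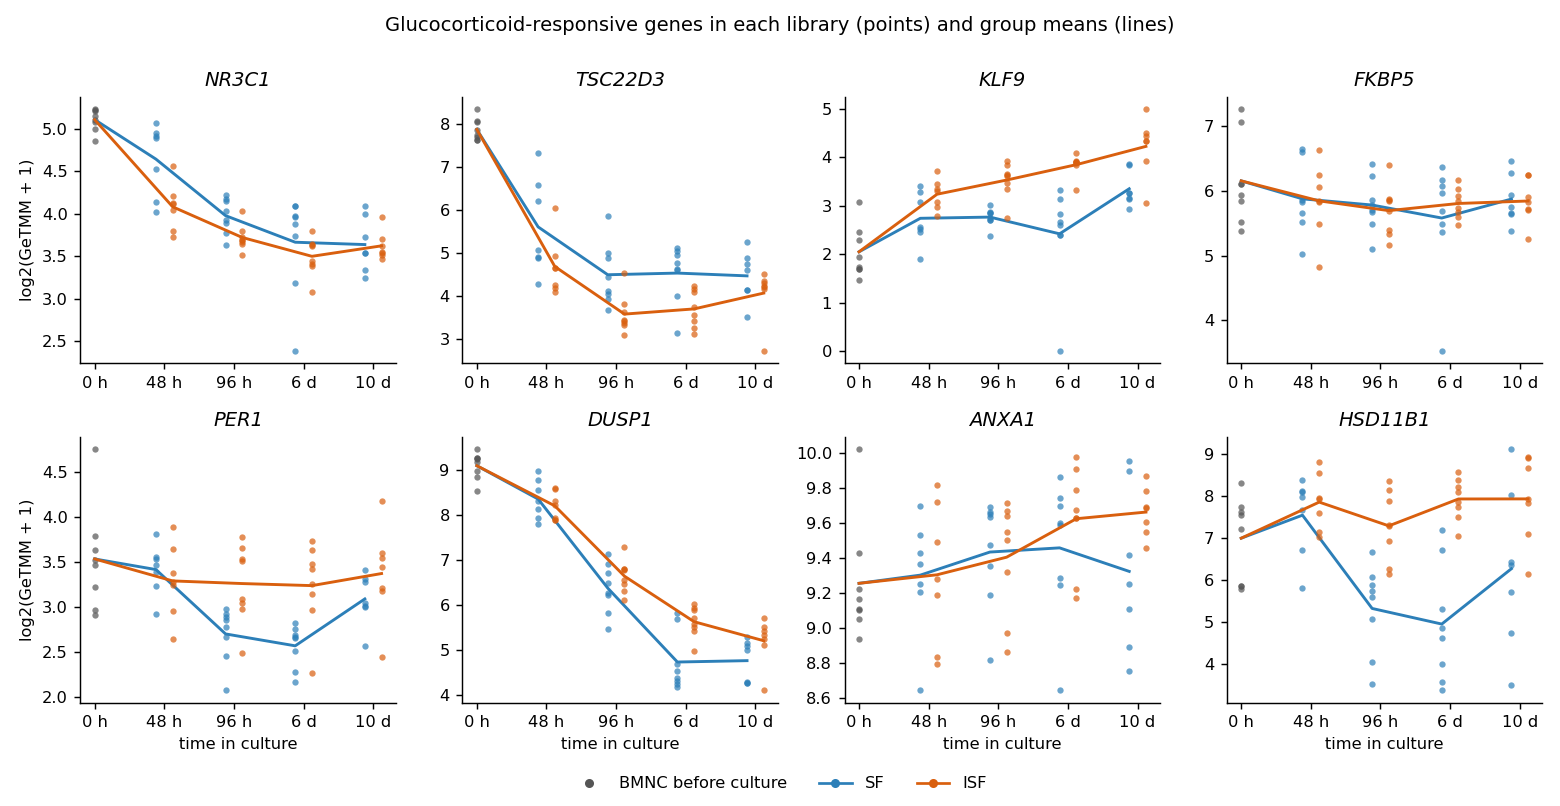
Levels of the 8 genes as log2(GeTMM + 1) against time in culture, with 1 point for each library and lines through the group means on the log2 scale; grey marks uncultured BMNC, blue SF and orange ISF. TSC22D3 dropped from 196 to 326 GeTMM before culture to 7.45 to 22.0 GeTMM in ISF at 96 hours, while KLF9 reached 7.30 to 30.7 GeTMM in ISF at 10 days from 1.77 to 7.38 GeTMM, and group medians of FKBP5 lay between 52.4 and 63.9 GeTMM.

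NR3C1, the receptor gene itself, declined over the first days in both fluids. Its levels ran from 28.0 to 36.5 GeTMM (median 34.0) in uncultured cells. Across the 4 culture times, in order, the SF libraries ran from 15.2 to 32.5 (median 28.6), 11.5 to 17.6 (median 14.8), 4.23 to 16.1 (median 14.2) and 8.48 to 16.1 (median 10.6). The matching ISF ranges were 12.3 to 22.7 (median 16.3), 10.4 to 15.3 (median 11.9), 7.47 to 12.9 (median 10.6) and 10.1 to 14.6 (median 10.7) GeTMM. No ISF library at any time reached the lowest uncultured library, whereas some SF libraries at 48 hours did. From 0 to 48 hours NR3C1 fell by 1.02 ± 0.16 (log2, SE) in ISF (FDR = 1.9e-07) and by 0.46 ± 0.16 in SF (FDR = 0.014), lower in 7 of 7 horses in each fluid. The SF call was lost without Dealings (FDR = 0.093) or Flash (FDR = 0.087). From 48 to 96 hours the drop in SF was 0.66 ± 0.16 (FDR = 0.00099), and in ISF the difference was -0.36 ± 0.16 (FDR = 0.11), lower in 7 of 7 horses. The ISF step was called under 4 alternatives: quantile normalization (FDR = 0.029), library weights (FDR = 0.0048), a fit of those 2 groups (FDR = 0.026) and leaving out the 6-day SF library of Moon (FDR = 0.035). By 10 days NR3C1 was 2.80-fold lower than before culture in ISF (FDR = 1.5e-12) and 2.77-fold lower in SF (FDR = 3.1e-12).

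TSC22D3 encodes GILZ, a leucine zipper protein that mediates anti-inflammatory actions of glucocorticoids. Of the 8 genes it had the largest estimated drop by 48 hours in both fluids. Uncultured cells held 196 to 326 GeTMM (median 222). The SF ranges for the successive culture times were 18.2 to 160.3 (median 32.7), 11.8 to 57.5 (median 18.4), 7.69 to 33.6 (median 25) and 10.3 to 37.4 (median 23.1). In ISF the corresponding ranges were 15.9 to 65.2 (median 24.0), 7.45 to 22.0 (median 9.76), 7.64 to 17.8 (median 11.6) and 5.54 to 21.8 (median 17.6) GeTMM. None of the cultured libraries reached the uncultured range, and Lurie was the highest horse in both fluids at 48 and 96 hours. The gene fell by 3.20 ± 0.33 (log2, SE) from 0 to 48 hours in ISF, 9.18-fold (FDR = 7.1e-13), and by 2.27 ± 0.33 in SF, 4.84-fold (FDR = 3e-08). A further drop followed from 48 to 96 hours, by 1.11 in ISF (FDR = 0.0099) and by 1.12 in SF (FDR = 0.0065), in 7 of 7 horses in each. From 96 hours on no interval passed the test in either fluid. Over the whole 10 days the fall was 14.1-fold in ISF (FDR = 2e-16) and 10.7-fold in SF (FDR = 2.3e-14).

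KLF9, a zinc finger transcription factor that the receptor induces, went the other way. Its levels before culture were 1.77 to 7.38 GeTMM (median 2.60). Across the 4 culture times, in order, the SF libraries ran from 2.74 to 9.55 (median 4.85), 4.20 to 7.06 (median 5.91), 0 to 8.97 (median 5.20) and 6.61 to 13.5 (median 8.54). The matching ISF ranges were 5.86 to 12.1 (median 8.92), 5.72 to 14.1 (median 11.3), 9.04 to 16.1 (median 13.9) and 7.30 to 30.7 (median 19.3) GeTMM. The ISF median was higher at each later time, and Moon was the lowest ISF horse at 96 hours, 6 days and 10 days. KLF9 rose by 1.19 ± 0.27 (log2, SE) from 0 to 48 hours in ISF (FDR = 0.00014, higher in 7 of 7 horses) and by 0.69 ± 0.27 in SF (FDR = 0.029, 6 of 7 horses). The SF call was lost without Catnip, Dealings, Lurie or Ollie (FDR between 0.066 and 0.13), with a pseudocount of 0.1 (FDR = 0.11) and by voom on the recovered reads (FDR = 0.14). Over 10 days it rose 4.52-fold in ISF (FDR = 8.6e-11) and 2.46-fold in SF (FDR = 2e-05). The SF rise from 6 to 10 days, by 0.93 (FDR = 0.031), rested on Moon, since with its SF library at 6 days left out the difference was 0.58 (FDR = 0.13). It was also lost without Dreamer (FDR = 0.056), Lurie (FDR = 0.10) or Ollie (FDR = 0.12), by voom (FDR = 0.058) and in a fit of the groups compared alone (FDR = 0.45).

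FKBP5 encodes a chaperone partner that lowers the receptor's affinity for hormone and is itself induced by the receptor. Group medians stayed between 52.4 and 63.9 GeTMM. The spread was widest before culture, from 40.7 to 152 GeTMM, where Catnip and Dreamer lay above the other 6 horses. FKBP5 was called in none of the 15 comparisons by limma, at an unadjusted p under 0.05 in none of them, nor by voom. The 95% confidence interval of its change over 10 days was -0.85 to 0.23 (log2) in ISF and -0.82 to 0.26 in SF.

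PER1, a clock gene that glucocorticoids induce acutely, passed the test at 1 step in culture, from 48 to 96 hours in SF. Uncultured cells had 6.51 to 26.1 GeTMM (median 10.3), with Flash the highest. The SF ranges for the successive culture times were 6.57 to 13.1 (median 10.1), 3.20 to 6.90 (median 6.04), 3.49 to 6.07 (median 5.34) and 4.93 to 9.62 (median 7.28). In ISF the corresponding ranges were 5.28 to 13.8 (median 8.68), 4.60 to 12.8 (median 8.97), 3.81 to 12.3 (median 9.13) and 4.44 to 17.1 (median 9.88) GeTMM. Moon was the lowest horse in both fluids from 96 hours on. In SF PER1 fell by 0.72 ± 0.21 (log2, SE) from 48 to 96 hours (FDR = 0.007, lower in 7 of 7 horses), and the ISF difference was -0.03 ± 0.21 (FDR = 0.95). Whether these steps differed between the fluids was not tested. The later SF difference from 6 to 10 days was 0.52, higher in 7 of 7 horses (FDR = 0.13, and 0.022 with a term for horse). Over the 10 days in SF PER1 differed by -0.44 (FDR = 0.055, and 0.035 with the horse term).

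DUSP1 encodes a phosphatase that switches off stress-activated MAP kinases and is induced both by glucocorticoids and by stress. It fell at each of the first 3 steps in both fluids. Its levels before culture were 372 to 716 GeTMM (median 595). Across the 4 culture times, in order, the SF libraries ran from 224 to 506 (median 318), 43.0 to 139.5 (median 82.5), 17.1 to 55.7 (median 21.0) and 18.2 to 38.1 (median 31.1). The matching ISF ranges were 237.5 to 389 (median 301), 68.1 to 155.5 (median 101), 30.3 to 63.9 (median 49.0) and 16.1 to 51.0 (median 39.4) GeTMM. Neighbouring times did not overlap between 48 and 96 hours in either fluid, nor between 96 hours and 6 days in ISF, a trait not counted over all genes. The drop in ISF was 0.89 ± 0.23 (log2, SE) by 48 hours (FDR = 0.00086), then 1.57 ± 0.23 (FDR = 7.6e-07) and 1.02 ± 0.22 (FDR = 0.0026). In SF it was 0.74 ± 0.23 (FDR = 0.0065), 1.99 ± 0.23 (FDR = 7.7e-10) and 1.65 ± 0.22 (FDR = 3.3e-06). Over 10 days DUSP1 fell 15.0-fold in ISF (FDR = 2.7e-23) and 20.3-fold in SF (FDR = 2.6e-25).

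ANXA1, a phospholipid binding protein that restrains leukocyte recruitment, was the most abundant of the 8 genes. All 68 libraries lay between 399 and 1041 GeTMM, and group medians between 562 and 822 GeTMM. The uncultured library of Ollie, at 1041 GeTMM, was above the other 7 (488 to 689). That library also had the highest GeTMM sum before culture. The only call was a rise over the 10 days in ISF, by 0.41 ± 0.18 (log2, SE; FDR = 0.034; 6 of 7 horses). It was lost without Catnip, Dealings, Lurie, Moon or RimRun (FDR between 0.074 and 0.089).

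HSD11B1, the enzyme that regenerates active glucocorticoid, varied widely between horses. Uncultured cells had 54.5 to 316 GeTMM (median 166). The SF ranges for the successive culture times were 55.3 to 329 (median 251), 10.6 to 99.8 (median 49.6), 9.36 to 143.9 (median 25.7) and 10.3 to 554 (median 80.7). In ISF the corresponding ranges were 128 to 445 (median 239), 69.3 to 323 (median 157), 131 to 377 (median 251) and 69.8 to 485 (median 241) GeTMM. The SF libraries at 10 days spanned more than the range of any other group, from Dreamer at 10.3 to Dealings at 554. From 48 to 96 hours HSD11B1 fell in SF by 2.22 ± 0.55 (log2, SE; FDR = 0.0014; lower in 7 of 7 horses), 4.65-fold, and in ISF the difference was -0.56 ± 0.55 (FDR = 0.54). With a term for horse, 3 further comparisons passed: ISF at 48 hours against uncultured cells (FDR = 0.026), ISF at 10 days against uncultured cells (FDR = 0.033), both higher in culture, and SF from 6 to 10 days, higher at 10 days (FDR = 0.029).

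Counts over the set were read against the share of all genes called. The share of all genes without overlap between groups was not counted. From 0 to 48 hours 4 of 8 were called in ISF against 52.7% of all genes tested, and 4 of 8 in SF against 45.4%. These were the same 4 genes, NR3C1, TSC22D3 and DUSP1 lower and KLF9 higher. From 48 to 96 hours 2 of 8 were called in ISF (19% of all genes) and 5 of 8 in SF (27.3%). From 96 hours to 6 days the sole member called was DUSP1, in ISF (6.38%) and in SF (2.05%). From 6 to 10 days 0 of 8 were called in ISF (10.5%), 0 at an unadjusted p under 0.05 and 0 by voom, and 1 of 8, KLF9, in SF (4.78%), where a horse term gave 3. Over the 10 days 5 of 8 were called in ISF (74.5%) and 4 of 8 in SF (69.6%). The comparisons with uncultured cells share the same 8 libraries, and the steps on both sides of 6 days share the libraries that the choice of genes rested on. The median change of the 8 genes over 10 days was -0.24 (log2) in ISF and -0.59 in SF, beside -0.03 and -0.01 over all genes.

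The fluids were then compared at each time, to ask whether the other genes followed TSC22D3. At 48 hours 0 of 8 were called by limma (1.68% of all genes) and 0 by voom, while 2, NR3C1 and TSC22D3, had an unadjusted p under 0.05. TSC22D3 differed by -0.92 ± 0.34 (log2, ISF minus SF, SE; FDR = 0.15) and was lower in ISF in 7 of 7 horses. NR3C1 differed by -0.56 ± 0.17 (FDR = 0.064) and was lower in 6 of 7 horses. With a term for horse both passed (FDR = 0.024 and 0.013), and NR3C1 also passed with the 6-day SF library of Moon left out (FDR = 0.0094), without Dealings (FDR = 0.042) and without Moon (FDR = 0.013). KLF9 differed by 0.50 ± 0.28 (FDR = 0.42; higher in 6 of 7 horses).

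**Figure D2:**
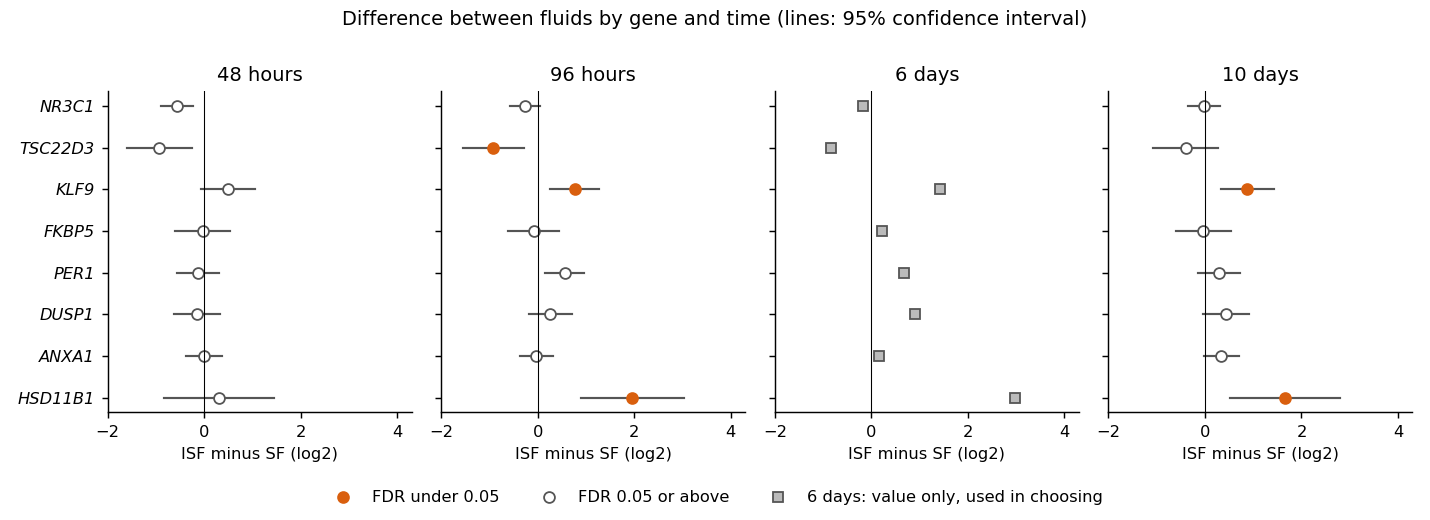
Difference between fluids (ISF minus SF, log2 scale) of each gene at 4 times, with 95% confidence intervals from limma; filled circles have an FDR under 0.05, open circles do not, and the grey squares at 6 days are values without interval or test. TSC22D3 lay to the left of 0 at each time, KLF9 and HSD11B1 to the right, and FKBP5 ran from -0.09 to 0.22, the latter -0.07 without the 6-day SF library of Moon.

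At 96 hours 3 of 8 were called (10.5% of all genes), in opposite directions. Counts of horses and the horse term at this time took the doubtful labels of Dealings and Dreamer as given. TSC22D3 was lower in ISF by 0.92 ± 0.31 on the log2 scale (1.89-fold; FDR = 0.047; lower in 8 of 8 horses), whereas KLF9 was higher by 0.76 ± 0.26 (1.70-fold; FDR = 0.044; 8 of 8 horses) and HSD11B1 by 1.96 ± 0.53 (3.90-fold; FDR = 0.0099; 8 of 8 horses). PER1 differed by 0.56 ± 0.20 (FDR = 0.064; higher in 7 of 8 horses) and passed with a term for horse (FDR = 0.012), without Moon (FDR = 0.020) or with only its 6-day SF library left out (FDR = 0.045). Without the ISF libraries labelled Dealings and Dreamer, HSD11B1 stayed called (1.99; FDR = 0.024), while TSC22D3 (-0.93; FDR = 0.092) and KLF9 (0.69; FDR = 0.14) did not. The call of TSC22D3 was lost without Catnip, Dealings, Dreamer, Flash, Lurie or Ollie (FDR between 0.052 and 0.16), that of KLF9 without any horse but Moon (FDR between 0.074 and 0.14), and that of HSD11B1 without Dreamer (1.58; FDR = 0.055). Without the filter on low values, and by voom, TSC22D3 (FDR = 0.080 and 0.088) and KLF9 (FDR = 0.073 and 0.12) were not called, and KLF9 was not with a pseudocount of 0.1 (FDR = 0.20). With a term for horse TSC22D3 (FDR = 0.0049), KLF9 (FDR = 0.0088) and HSD11B1 (FDR = 0.00022) stayed called.

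At 6 days, the time that chose the genes, the values are a description. TSC22D3 differed by -0.84 (log2, ISF minus SF; -0.78 without the SF library of Moon), lower in 7 of 8 horses, with RimRun at 8.44 in ISF and 7.69 GeTMM in SF the exception. KLF9 differed by 1.43, with the lowest ISF library at 9.04 and the highest SF library at 8.97 GeTMM. Without the SF library of Moon, in which it is listed at 0, the difference was 1.08. HSD11B1 differed by 2.97 (3.29 without that library) and PER1 by 0.67 (0.61), each higher in ISF in 8 of 8 horses. DUSP1 differed by 0.90 (0.84), higher in 7 of 8 horses. FKBP5 differed by 0.22, but by -0.07 with that library left out, in which it was at 10.5 GeTMM, so its direction turned. ANXA1 differed by 0.17 (0.22 without the library) and NR3C1 by -0.17 (-0.35). In this comparison 30.2% of all genes were called; the 8 genes were chosen on it, so their own count past the threshold, 5 by limma and 4 by voom, supports nothing. TSC22D3 itself was not past it under 10 of 17 alternatives.

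At 10 days 2 of 8 were called (20.8% of all genes), both higher in ISF. KLF9 was higher by 0.87 ± 0.28 (log2, SE; 1.83-fold; FDR = 0.017; 6 of 7 horses) and HSD11B1 by 1.66 ± 0.57 (3.16-fold; FDR = 0.029; 5 of 7 horses). TSC22D3 differed by -0.40 ± 0.34 (FDR = 0.44; lower in 5 of 7 horses), with an interval of -1.07 to 0.27. DUSP1 differed by 0.44 (FDR = 0.19), ANXA1 by 0.34 (FDR = 0.19) and PER1 by 0.28 (FDR = 0.39). NR3C1, at -0.01 with an interval of -0.35 to 0.32, and FKBP5, at -0.03 with an interval of -0.59 to 0.53, had the closest group means. The KLF9 call was lost without Catnip (FDR = 0.10), Dreamer (FDR = 0.062) or RimRun (FDR = 0.076) and with a pseudocount of 0.1 (FDR = 0.13). That of HSD11B1 was lost without Catnip, Dreamer, Lurie or RimRun (FDR between 0.077 and 0.12) and in a fit of the 2 groups alone (FDR = 0.11). With a term for horse KLF9 (FDR = 0.0026) and HSD11B1 (FDR = 0.0019) stayed called.

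Whether the fluid difference itself changed between 48 hours and 10 days was tested as an interaction, which leaves out the 6-day contrast. It passed for 0 of 8 genes by limma (2.99% of all genes) and 0 by voom, with 1, NR3C1, at an unadjusted p under 0.05. The estimates were 0.55 ± 0.23 (log2, SE) for NR3C1 (FDR = 0.21), 0.52 ± 0.47 for TSC22D3 (FDR = 0.67) and 1.35 ± 0.80 for HSD11B1 (FDR = 0.43). Whether the gaps called at 96 hours differed from those at 48 hours or 10 days was not tested.

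**Figure D3:**
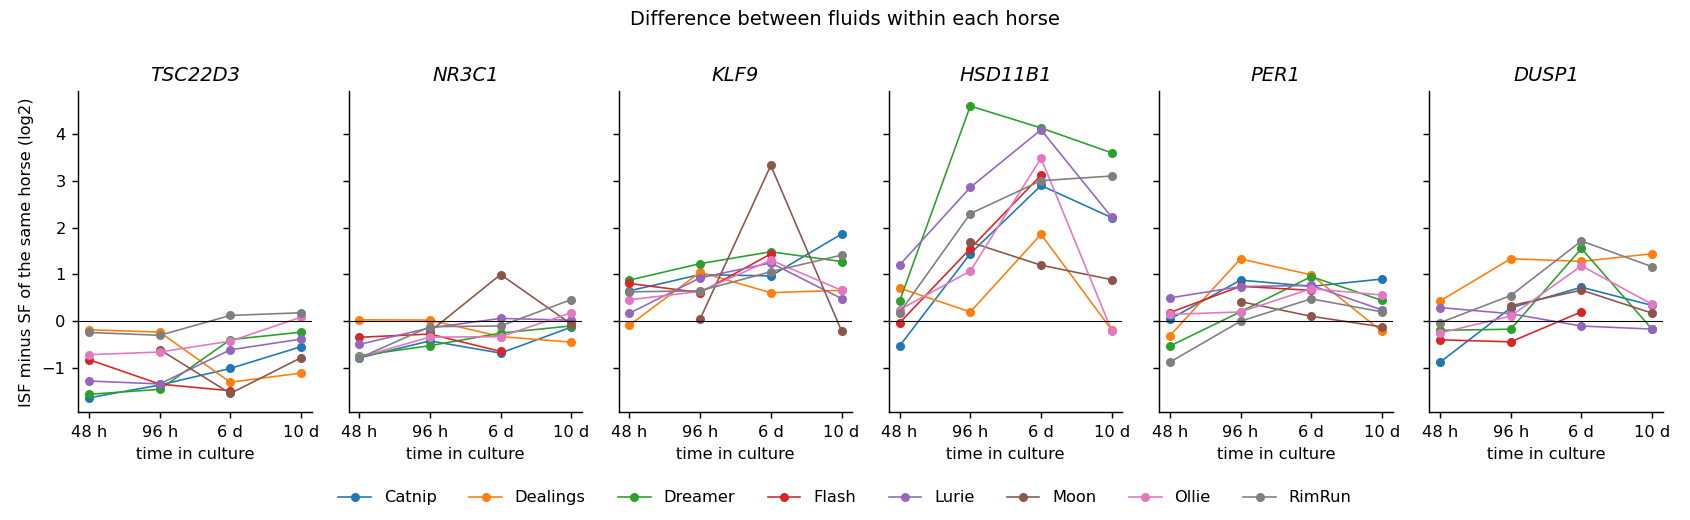
Difference between ISF and SF of the same horse (log2 scale) at 48 hours, 96 hours, 6 days and 10 days for 6 of the genes, with 1 line for each horse. TSC22D3 lay below 0 in 7 of 7, 8 of 8, 7 of 8 and 5 of 7 horses, and HSD11B1 above 0 in 5 of 7, 8 of 8, 8 of 8 and 5 of 7; the KLF9 point at 3.33 is Moon at 6 days.

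Directions were also counted within horses. TSC22D3 was lower in ISF in every horse compared at 48 and 96 hours. The counts of the other genes are therefore those over all horses, and cannot show whether a gene moved with TSC22D3. At 48 hours TSC22D3 was lower in ISF in 7 horses. In these NR3C1 was lower in 6, while KLF9 was higher in 6, HSD11B1 in 5 and PER1 in 4. At 96 hours, with horses as labelled, TSC22D3 was lower in 8 horses. In these NR3C1 was lower in 7, KLF9 and HSD11B1 higher in 8 each and PER1 higher in 7. FKBP5 was split, at 4 higher and 4 lower. The gap of TSC22D3 at 96 hours ran from -1.46 in Dreamer to -0.24 in Dealings, and that of HSD11B1 from 0.19 in Dealings to 4.60 in Dreamer, so the ends of both ranges came from the libraries of doubtful horse.

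Likeness to TSC22D3 was measured as Pearson's r between the 9 group means of log2(GeTMM + 1). It is a description over groups that share horses and a common drop at the start of culture. The means at 6 days, on which the choice of genes rested, are among them, and r without them was not computed. NR3C1 was the most like it (r = 0.93), followed by FKBP5 (0.79), DUSP1 (0.71) and PER1 (0.38), with HSD11B1 at -0.04, ANXA1 at -0.63 and KLF9 at -0.76. Over the genes tested r had a median of 0.07 and quartiles of -0.65 and 0.70. Over the 8 cultured groups alone, NR3C1 stayed at 0.86, while DUSP1 was at 0.51, FKBP5 at 0.32, PER1 at 0.01, HSD11B1 at -0.14, ANXA1 at -0.62 and KLF9 at -0.64. The median over all genes was then 0.01 and the quartiles -0.53 and 0.55, between which DUSP1, FKBP5, PER1 and HSD11B1 lay. The 5 genes with the most similar course were GPHA2 (0.998), VIPR1 (0.985), SHF (0.984), ARMC8 (0.984) and UBE2H (0.983), none of them on the glucocorticoid lists used here.

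Other genes of the pathway were counted from lists drawn up for the purpose, with earlier results of these data known. The counts stand against 1.68%, 10.5%, 30.2% and 20.8% of all genes called at the 4 times, with 127, 898, 2427 and 1449 genes higher in ISF and 118, 626, 1978 and 1578 lower. Of 16 tested chaperones, coregulators and receptor relatives, the calls in ISF for the successive times were 2 higher and 0 lower, 2 higher and 1 lower, 5 higher and 1 lower, and 3 higher and 3 lower, or 12.5%, 18.8%, 37.5% and 37.5% of the list. STIP1, the co-chaperone that hands client proteins to HSP90, was at 121.5 ± 11.4 GeTMM in ISF and 75.2 ± 12.9 in SF at 6 days (SD, n = 8 each; log2 difference 0.70; FDR = 2.8e-07). NR3C2, the mineralocorticoid receptor, which also binds cortisol, was lower in ISF from 96 hours on. At 6 days it was at 0.29 ± 0.12 against 1.05 ± 0.58 GeTMM (-0.61, FDR = 0.00012). It was near the floor: the ISF means at 96 hours, 6 days and 10 days were 0.19, 0.29 and 0.34 GeTMM, under the 0.5 GeTMM of the filter. BAG1 was higher in ISF at 6 days (0.48; FDR = 7.3e-05), and at 10 days PTGES3 and HSP90AB1 were higher (0.34 and 0.36; FDR = 0.0093 and 0.023) and NCOA2 lower (-0.71; FDR = 0.026). At 10 days the 3 higher calls dropped to 0 after quantile normalization, while the 3 lower calls did not change in number. Of 4 genes of hormone metabolism and transport that were tested, H6PD was higher in ISF at 96 hours (0.49; FDR = 0.014), 6 days (0.84; FDR = 3e-06) and 10 days (0.41; FDR = 0.037), the same direction as HSD11B1, and SRD5A1 at 10 days (0.51; FDR = 0.022).

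Further glucocorticoid-induced genes were called in both directions. Of 29 tested, the calls at the 4 times were 1 higher and 0 lower, 2 higher and 4 lower, 7 higher and 7 lower, and 3 higher and 8 lower, or 3.45%, 20.7%, 48.3% and 37.9% of the list beside the 1.68%, 10.5%, 30.2% and 20.8% of all genes. Their median differences were -0.07, -0.06, 0.05 and -0.18 (log2), beside -0.02, -0.003, 0 and -0.02 over all genes. IL1R2, the decoy receptor for interleukin-1, was higher in ISF at each time, from 43.6 ± 15.2 GeTMM in SF to 128.4 ± 68.01 in ISF at 48 hours (1.45; FDR = 0.0497; n = 7 each) and by 2.46 at 10 days (FDR = 8.6e-06). DDIT4, an inhibitor of mTOR signalling, was higher at 6 days (1.47, FDR = 0.016). It varied widely in ISF, at 106.2 ± 156 GeTMM (SD), against 21.2 ± 7.96 in SF. CEBPB, a myeloid transcription factor, was higher at 96 hours (0.93, FDR = 0.0059). Lower in ISF at 96 hours were CEBPD (-0.99, FDR = 0.00046) and THBS1 (-2.17, FDR = 0.0082). At 6 days the chemokine receptor CXCR4 (-1.77, FDR = 6.2e-07) and the metallothionein MT2A (-2.30, FDR = 0.0021) were lower, and at 10 days TXNIP (-1.76, FDR = 0.0018). MT2A varied widely at 6 days, at 40.98 ± 65.92 GeTMM (SD) in ISF and 141.8 ± 149.2 in SF.

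Of 11 tested genes that glucocorticoids lower in inflammation, 1, 2, 5 and 3 were called higher in ISF at the 4 times and 0, 0, 1 and 1 lower, or 9.09%, 18.2%, 54.5% and 36.4% of the list beside 1.68%, 10.5%, 30.2% and 20.8% of all genes. CCL2, the monocyte chemokine, was at 9004 ± 3129 GeTMM in ISF and 610.1 ± 423.6 in SF at 6 days (4.01; FDR = 1.1e-12). CXCL8 (2.43; FDR = 2.8e-05) was also higher at 6 days and MMP9 at 10 days (2.58; FDR = 7.3e-06), while CCL5, a chemokine made by T cells among others, was lower at 10 days (-1.53; FDR = 0.037). Of 7 other MAP kinase phosphatases tested, 1, 3, 5 and 3 were called higher at the 4 times and 0, 0, 0 and 1 lower, or 14.3%, 42.9%, 71.4% and 57.1%. DUSP6 was at 85.7 ± 21.0 GeTMM in ISF and 21.4 ± 7.61 in SF at 6 days (2.02; FDR = 5.4e-09), DUSP4 differed by 2.21 at 48 hours (FDR = 0.0033) and DUSP5 by 1.69 at 6 days (FDR = 1.2e-05), whereas DUSP2 was lower at 10 days (-1.21; FDR = 0.0033).

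Of 22 immediate early genes, 2, 6, 8 and 4 were called higher at the 4 times and 0, 1, 0 and 0 lower, or 9.09%, 31.8%, 36.4% and 18.2%, the last 2 shares near those of all genes (30.2% and 20.8%). They included FOSL1 (1.71 at 6 days; FDR = 3.7e-06), ATF3 (1.05 at 6 days; FDR = 0.0095) and NR4A1 (1.31 at 96 hours; FDR = 0.0027), with KLF4 the 1 lower (-0.90; FDR = 0.014). Of 16 clock genes tested besides PER1, 0, 5, 7 and 4 were called lower and 1 at each time higher, or 6.25%, 37.5%, 50% and 31.2%. The 1 higher was BHLHE40 (1.88 at 6 days; FDR = 2.8e-07), and among the lower were BHLHE41 (-1.94; FDR = 0.00012) and DBP (-1.23; FDR = 8.4e-05) at 6 days, CIART at 96 hours (-1.33; FDR = 0.0016) and NR1D1 at 10 days (-0.82; FDR = 0.00018). Of 7 other annexins, 0, 1, 3 and 3 were called higher and 0, 2, 1 and 2 lower, or 0%, 42.9%, 57.1% and 71.4%, with ANXA5 higher at 6 days (0.75; FDR = 1.3e-06), ANXA2 higher at 10 days (0.82; FDR = 0.016) and ANXA3 lower at 6 days (-1.55; FDR = 3.1e-05). The 3 relatives of TSC22D3 with the same domain were called at none of the 4 times by limma, and 1 was at 6 days after quantile normalization.

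**Figure D4:**
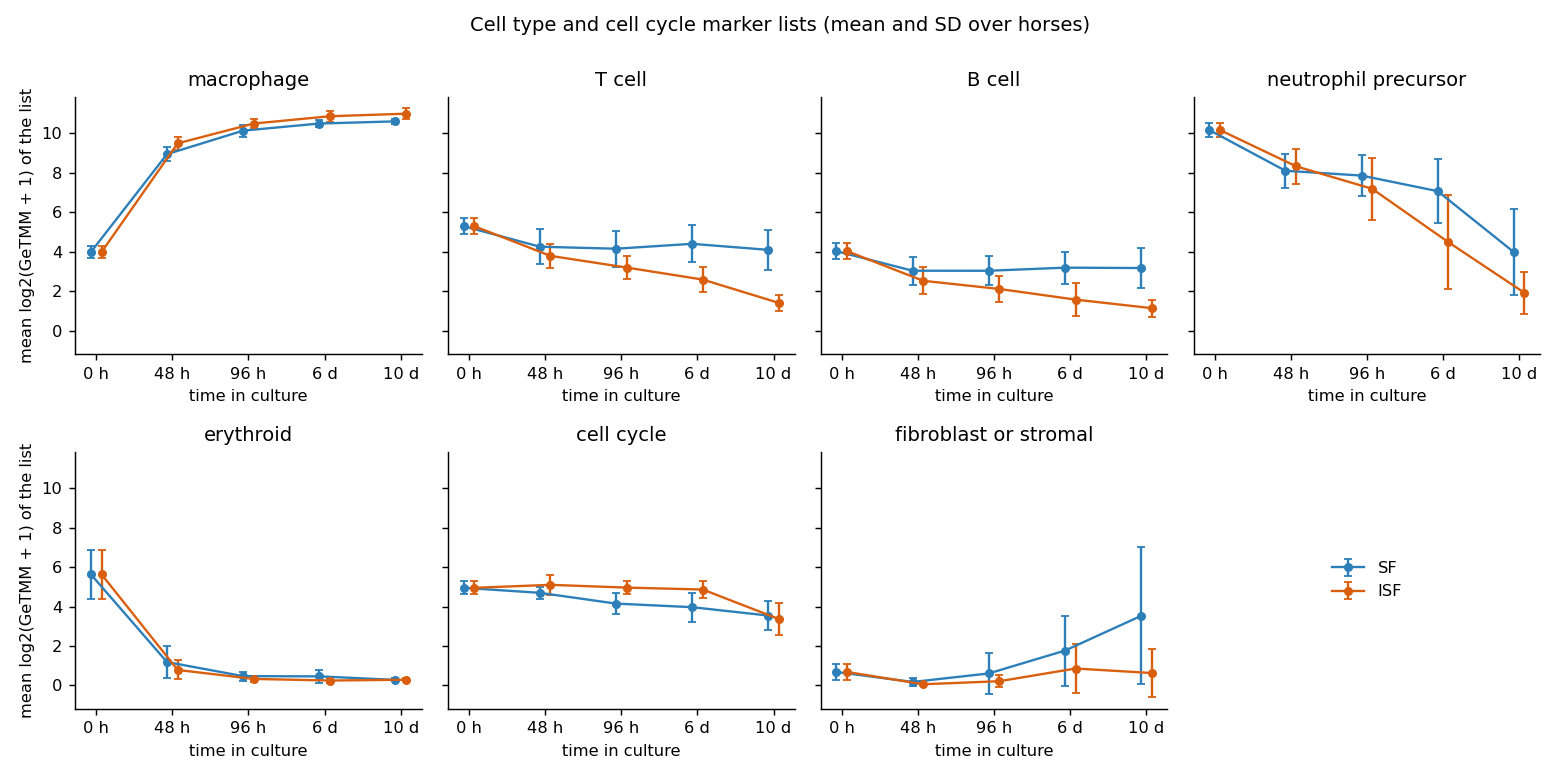
Mean log2(GeTMM + 1) of 7 marker lists against time in culture, as the mean over horses with SD, in SF (blue) and ISF (orange). The macrophage list stood at 3.98 before culture and at 10.6 in SF and 11 in ISF at 10 days. The means of the T cell and B cell lists were lower in ISF than in SF at each culture time.

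Marker RNA of several cell types differed by both time and fluid. In bulk RNA, fewer cells of a type and less RNA per cell cannot be told apart. Macrophage markers had a list mean of 3.98 ± 0.30 (log2, SD, n = 8) before culture, 11 ± 0.27 in ISF and 10.6 ± 0.11 in SF at 10 days (n = 7 each), and were present in all cultures. Over the same time erythroid markers went from 5.64 ± 1.26 to 0.29 ± 0.06 in ISF and 0.28 ± 0.08 in SF, and neutrophil precursor markers from 10.2 ± 0.36 to 1.91 ± 1.06 and 3.98 ± 2.18. T cell markers were called lower in ISF for 0 of 5 genes at 48 and 96 hours and 5 of 5 at 6 and 10 days, and summed to 8.57 to 47.3 GeTMM in ISF against 28.6 to 228 in SF at 6 days. B cell markers were lower for 0, 1, 4 and 4 of 4 genes, with sums of 1.29 to 29.6 against 11.8 to 115 GeTMM at 6 days. At the same 4 times 0, 0, 5 and 3 of 6 neutrophil precursor markers and 0, 0, 0 and 5 of 5 stromal markers were called lower in ISF, the latter with SF sums of 0.41 to 4038 GeTMM at 10 days. Erythroid markers (4 tested) were not called, the cell cycle list (4 tested) had 0, 2, 3 and 0 higher, and among 7 macrophage markers 1, 2, 1 and 1 were higher and 0, 1, 1 and 0 lower. By voom the 10-day counts were 0 of 6 for neutrophil precursor markers and 2 of 5 for stromal markers. Of the markers only ALAS2, an erythroid gene, was at 0 in all libraries of a group, ISF at 10 days. At 96 hours the median difference (log2, ISF minus SF) was -0.95 over the T cell markers, -0.95 over the B cell markers and -0.94 over the neutrophil precursor markers. At 48 hours these medians were -0.50, -0.51 and 0.38, and at 10 days -2.78, -2.07 and -2.17. The part of these cell types in the values of the 8 genes was not tested.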

How the data were processed

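RNA of 68 equine BMNC libraries was sequenced by the authors as stranded paired-end reads, aligned to EquCab 3.0 and counted per gene with STAR 2.7.2a. The deposited values are GeTMM, an RPKM-type unit in which the authors divided each gene's reads by its length and the library's sum and scaled them with edgeR; nothing was pooled. Groups and horses came from the labels. Values were analysed as log2(GeTMM + 1) with limma 3.58.1 (R 4.3.3) after keeping genes at 0.5 GeTMM or more in at least 7 libraries, in 1 fit of the 9 groups with variance trend and no horse term, with Benjamini-Hochberg adjustment over 14570 genes. Scaling to the library makes every value relative to the other genes' RNA. Tables and figures used Python 3.11.15, numpy 2.4.6, pandas 2.3.3 and matplotlib 3.10.9. The procedure was tested on simulated data.

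Whole reads could be recovered for 24065 of 24065 genes above 0 (within 0.02 reads), and voom was run on them as an alternative. Other alternatives were a pseudocount of 0.1, no filter, quantile normalization, library weights, a horse term, a fit of only the groups compared, and leaving out each horse or the doubtful libraries. The 8 genes and all lists were chosen with earlier results of these data known, and the 6-day contrast of the fluids served in choosing, so the 8 genes get no test there. Beside the 8 genes, the text names those among the 2 highest and 2 lowest called of each list in each comparison of the fluids, and the 5 genes most like TSC22D3.

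Libraries of the same horse were paired by the animal named in the labels. The correlation of deviations between the fluids of the same horse had a median of 0.45 at 48 hours, 0.46 at 96 hours (lowest -0.22), 0.27 at 6 days and 0.21 at 10 days, against -0.11, -0.04, -0.03 and -0.04 between different horses. Gene symbols absent from the deposited table were not analysed here, and no sequences were used.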

Additional observations from a re-analysis of the deposited data

Results flagged for a closer look

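Each of the 8 genes was checked in each of the 9 groups for a single library far from the others by Dixon's ratio, 72 groups in all. Libraries stood apart in 6 of these; chance alone gives such a library in about 5% of groups. In ISF at 10 days TSC22D3 was at 5.543 GeTMM in Moon and between 16.7 and 21.8 in the other 6 horses, and DUSP1 was at 16.09 GeTMM in Dreamer and between 33.7 and 51.0 in the others. In SF at 6 days, in the library of Moon that had few genes above 0, FKBP5 was at 10.53 GeTMM (40.1 to 81.6 in the other 7) and KLF9 at 0 (4.25 to 8.97). In ISF at 6 days KLF9 was at 9.041 GeTMM in Moon (13.2 to 16.1 in the others). Before culture ANXA1 was at 1041 GeTMM in Ollie (488 to 689 in the others).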

How the results depend on the processing

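Over 17 alternatives the 8 genes gave 2040 values, of which 1867 kept both direction and side of the threshold, 61 lost the call and 33 gained it. A further 79 changed sign, 0 of them called in either fit: 20 each for FKBP5 and ANXA1, 11 for PER1, 8 for NR3C1, 6 for DUSP1, 5 each for KLF9 and TSC22D3 and 4 for HSD11B1, reaching at most -0.17 (TSC22D3, SF from 96 hours to 6 days, library weights). With the replicate block (a term for horse, paired libraries), the count of the 8 genes called between fluids was 2 instead of 0 at 48 hours and 4 instead of 3 at 96 hours, and for SF from 6 to 10 days it was 3 instead of 1. At 48 hours it was 1 after quantile normalization, 3 with library weights and 1 with Moon's 6-day SF library left out. At 96 hours it was 1 without the filter, 5 with library weights, 1 by voom and 1 without the ISF libraries labelled Dealings and Dreamer. At 10 days (main count 2) it was 1 with a pseudocount of 0.1 and 1 when no other groups entered the fit. For SF from 6 to 10 days it was 0 with library weights, by voom, with Moon's 6-day SF library left out and when no other groups entered the fit. The change of the fluid difference gave 1 with library weights instead of 0. Leaving out each horse in turn gave counts of 0 to 1, 0 to 4 and 0 to 2 between fluids at 48 hours, 96 hours and 10 days, 2 to 4 for SF from 0 to 48 hours (main count 4) and 0 to 1 for SF from 6 to 10 days. The median likeness to TSC22D3 of the other 7 genes was 0.38, and 0.0066 over the 8 cultured groups alone, an alternative chosen after seeing the data. Beyond what a left-out library or gene shows, the cause of these shifts was not tested. KLF9 had the lowest median depth of the 8 genes, at 189 reads a library. The promoter motif search was not run.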
